A study of Mus musculus with 9 samples.

Results

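The genes described here carry the signal of leukaemia inhibitory factor (LIF) into mouse embryonic stem (ES) cells. They are 10 genes chosen by name, from 52550 gene identifiers in the count table: the receptor chains Lifr, Il6st and Osmr, the kinase Jak1, the transcription factor Stat3, the feedback inhibitors Socs2 and Socs3, and the targets Pim1, Pim3 and Ifitm3. Each name matched 1 identifier. LIF binds its receptor LIFR together with gp130, the product of Il6st, and JAK kinases bound to the receptor then phosphorylate STAT3. Phosphorylated STAT3 enters the nucleus and switches on genes that hold mouse ES cells in self-renewal, among them SOCS proteins, which damp the receptor in turn. Protein phosphorylation, the step at which this pathway mainly works, was not measured.

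The series compared V6.5 ES cells carrying a KLF2/KLF4 double knockout (DKO, 5 libraries) with wild-type V6.5 cells (WT, 4 libraries). KLF2 and KLF4 are zinc-finger transcription factors of naive pluripotency, and Klf4 is itself a known target of STAT3. Both genotypes grew in Knockout DMEM with 15% FBS, LIF, a GSK inhibitor and a MEK inhibitor, so that LIF was present in every culture. The labels name neither the deleted stretch of either gene nor the number of clones, nor do they say whether the libraries of a genotype came from separate cultures, so the p-values measure only the spread between these libraries, which may be technical. Libraries were read from the 3′ ends of transcripts, and held 6035642 to 6617834 counts in DKO and 6557408 to 7098530 in WT.

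Reads of the 2 named targets went against the knockout label: Klf2 averaged 615 ± 19.0 CPM (counts scaled to a common library size) in the libraries labelled DKO and 459.6 ± 9.87 CPM in WT, and Klf4 averaged 1595 ± 140.0 CPM in those libraries and 848 ± 49.1 CPM in WT (SD, n = 5 and 4). On the log2 scale Klf2 differed by 0.42, and the 125 tested genes within 10 Mb of it on chromosome 8 had a median of 0.27. Klf4 differed by 0.91, and the 69 tested genes within 10 Mb of it on chromosome 4 had a median of 0.13. Reads outside a deleted part check nothing, so DKO below means the label, and every direction is given relative to the WT label. All 8 ES cell markers examined passed the filter on low counts, and their summed level was 4087 ± 91.5 CPM in DKO and 3402 ± 112 CPM in WT (exact permutation p = 0.00794, the smallest this design allows, BH 0.0317 over 4 marker lists). The sum joins markers of both directions: Dppa5a, Sox2, Utf1, Esrrb and Nanog rose, Zfp42 fell (-0.20 on the log2 scale, adjusted p = 0.00318 by edgeR), and Pou5f1 (-0.15) and Tdh (0.01) did not pass. Dppa5a, at 789 CPM in DKO and 404 CPM in WT, and Sox2, at 492 CPM in DKO and 299 CPM in WT, differed by the most CPM. Nanog rose by 0.22 on the log2 scale, below the median of 0.34 of the 146 tested genes within 10 Mb on chromosome 6. Zfp42 fell on chromosome 8, where the 58 tested genes within 10 Mb had a median of 0.50. Of 10 fibroblast markers, which would report feeder cells, none had enough reads to be tested, their sum averaged 2.55 ± 0.953 CPM in DKO and 3.27 ± 0.781 CPM in WT (exact permutation p = 0.238), and Lum and Fap were at 0 counts in all 9 libraries. The 8 primitive endoderm markers summed to 4.70 to 6.13 CPM in DKO and 4.70 to 7.93 CPM in WT (exact permutation p = 0.127), but the 2 that could be tested moved in opposite directions. Sox7 rose, with 94 counts in DKO and 4 in WT (adjusted p = 1.74e-08 by edgeR), and Dab2 fell, with 14 counts in DKO and 98 in WT (adjusted p = 1.13e-07 by edgeR). Sox17, too low to test, had 4 counts in DKO and 28 in WT, without overlap in CPM. The 6 blood and immune markers summed to 5.03 to 13.1 CPM in DKO and 14.8 to 15.5 CPM in WT (exact permutation p = 0.0159, BH 0.0317), mostly from Cd68, with 218 counts in DKO and 244 in WT, and Cd3e, with 34 counts in DKO and 165 in WT. The defining gene Ptprc had 0 counts in DKO and 1 in WT. The part of these markers in the results was not tested.

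Of the 10 genes, 9 had enough reads to be tested. In the libraries labelled DKO, Lifr, Il6st, Socs2 and Ifitm3 rose, Jak1, Pim1 and Pim3 fell, and Stat3 and Socs3 did not pass. A gene passed at an edgeR quasi-likelihood p under 0.05 after Benjamini-Hochberg adjustment over all 11893 genes tested. By that rule 47.8% of all tested genes passed, 23.9% as higher and 24.0% as lower in DKO. The share was 54.7% among the 6284 genes with a mean of 20 CPM or more, the range in which all 9 tested members lie. Of the 9 tested members, 7 passed, which is set beside these shares as a description. The 9 had a median log2 fold change of 0.12, against 0.01 over all tested genes, and a median size without sign of 0.38, against 0.26 over all tested genes. In 6 of the 9 tested members the 2 groups did not overlap in CPM, as in 37.4% of all tested genes. That share includes genes below 20 CPM and was not worked out for the range of the members. Every member call held in the 17 alternative settings, which changed the scaling, the filter or the tool or left out 1 library. In bulk RNA, fewer cells with a transcript and less transcript per cell cannot be told apart.

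**Figure D1:**
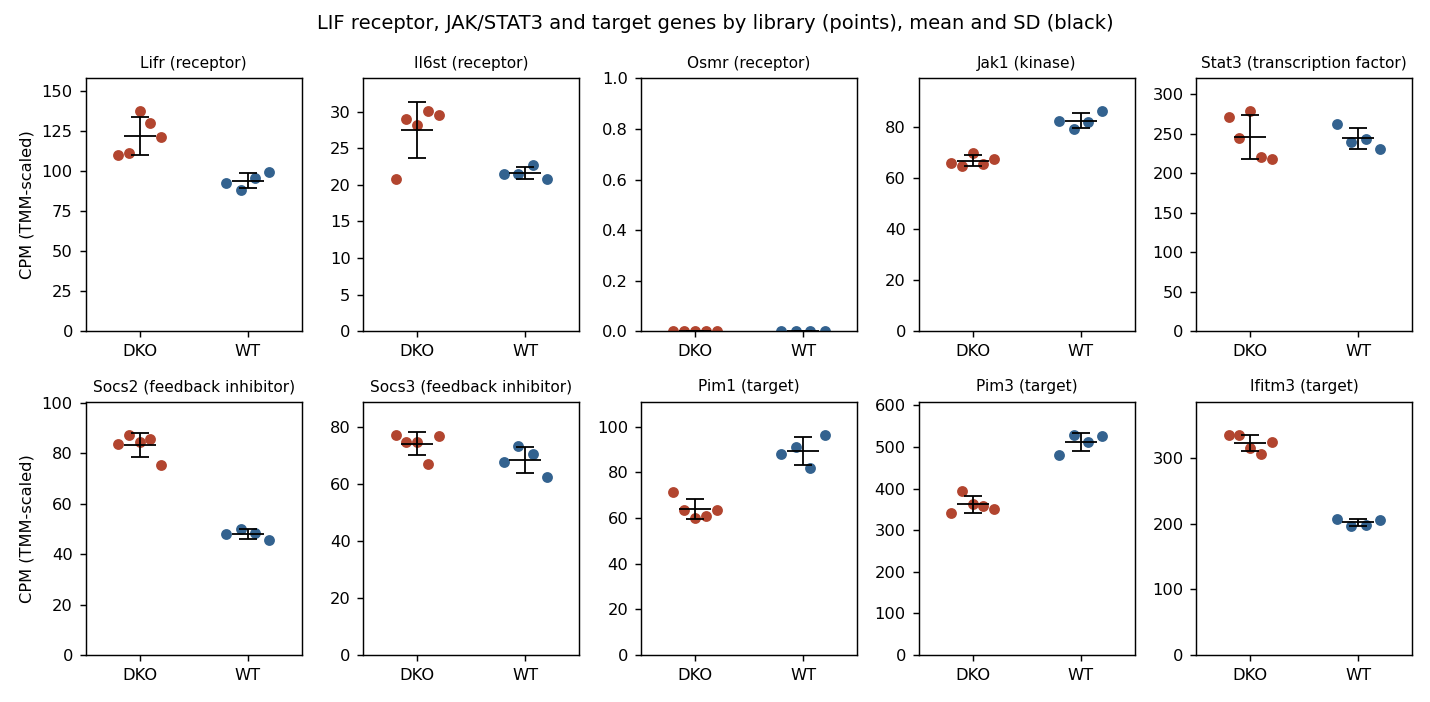
CPM of each of the 10 genes in every library, with 5 DKO libraries on the left and 4 WT libraries on the right of each panel; black bars give the mean and SD, and each vertical axis starts at 0. Lifr, Socs2 and Ifitm3 lie higher in every DKO library than in any WT library, Jak1, Pim1 and Pim3 lie lower, and Osmr is at 0 throughout.

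Both chains of the LIF receptor rose. Lifr (ENSMUSG00000054263, chromosome 15, 7090614 to 7197489, plus strand, mm10) encodes LIFR, the chain that binds LIF together with gp130. Its level was 109.9, 111, 137, 130.1 and 121 CPM in DKO 1 to 5, against 92.3, 88.3, 95.6 and 99.3 CPM in WT 1 to 4. Every DKO library lay above every WT library, with DKO 1 and DKO 2 nearest to WT. The means were 122 ± 11.9 CPM in DKO and 93.9 ± 4.69 CPM in WT (SD, n = 5 and 4), or 0.38 ± 0.07 (SE) as a log2 fold change, with an adjusted p of 1.27e-05 by edgeR. Il6st (ENSMUSG00000021756, chromosome 13, 112464070 to 112510086, plus strand) encodes gp130, the signalling chain shared by the cytokines of the IL-6 family. Its level was 20.8, 29.0, 28.2, 30.0 and 29.5 CPM in DKO 1 to 5, against 21.5, 21.5, 22.8 and 20.7 CPM in WT 1 to 4. DKO 1 lay among the WT libraries and the other 4 DKO libraries lay above all of them, so the groups overlapped. On the log2 scale the change was 0.34 ± 0.11 (SE, adjusted p = 0.00804 by edgeR), and it was 0.43 without DKO 1.

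Osmr (ENSMUSG00000022146, chromosome 15, 6813577 to 6874969, minus strand) encodes the chain that replaces LIFR in the main mouse receptor for oncostatin M. It had 0 counts in all 9 libraries. A count of 0 allows up to 3 counts in a library, which is 0.426 to 0.506 CPM here, so no change in Osmr was detectable at this depth. Osmr and Lifr are neighbours, with 215.6 kb between their annotated ends. The 33 tested genes within 10 Mb of Lifr had a median log2 fold change of 0.13.

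Jak1 (ENSMUSG00000028530, chromosome 4, 101152367 to 101265282, minus strand), the main kinase bound to gp130, fell while the receptor chains rose. It stood at 66.1, 64.9, 70.1, 65.6 and 67.7 CPM in DKO 1 to 5, against 82.6, 79.1, 82.1 and 86.2 CPM in WT 1 to 4. All DKO libraries were below all WT libraries, and the spread within each group was small (coefficients of variation of 3.09% in DKO and 3.51% in WT). This gave a log2 fold change of -0.30 ± 0.06 (SE, adjusted p = 0.000131 by edgeR). The Jak1 span overlaps Raver2 and 2 small annotated genes, and the strand setting of the counting is not given in the sources used here, so reads from them may be mixed in.

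Stat3 (ENSMUSG00000004040, chromosome 11, 100885098 to 100939540, minus strand), the transcription factor at the end of the relay, did not pass. It stood at 271, 245, 279, 221 and 218 CPM in DKO 1 to 5, against 262, 239, 244 and 231 CPM in WT 1 to 4. The DKO libraries lay on both sides of WT, with DKO 1 and DKO 3 above every WT library and DKO 4 and DKO 5 below every one. Between the groups the log2 fold change was 0.01 with a 95% interval of -0.12 to 0.15 (adjusted p = 0.884 by edgeR). Of the 9 tested members, only Stat3 changed sign when 1 library was left out.

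Stat3 lies beside its relatives Stat5a and Stat5b, which answer to other cytokines, and both of these fell. Stat5a had 36, 21, 29, 15 and 30 counts in DKO 1 to 5, against 58, 68, 69 and 81 counts in WT 1 to 4. Its log2 fold change was -1.29 ± 0.19 (SE, adjusted p = 9.96e-07 by edgeR). Stat5b had 46, 36, 25, 20 and 39 counts in DKO 1 to 5, against 85, 66, 90 and 83 counts in WT 1 to 4. Its log2 fold change was -1.18 ± 0.18 (SE, adjusted p = 1.28e-06 by edgeR). Neither gene overlapped between the groups. Stat3 and Stat5a are annotated on opposite strands and share 72 bases at their 3′ ends, the part of a transcript that these libraries read, so with the strand setting not given their counts are uncertain. Stat5b shares no annotated base with either. Of the 27 other tested genes that start within 500 kb of Stat3, 2 rose and 10 fell, with a median log2 fold change of -0.13. The fall of greatest size among them was that of Cavin1, the next tested gene on the other side (-2.26, adjusted p = 6.66e-07 by edgeR), which shapes membrane caveolae and was picked after its value was seen.

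**Figure D2:**
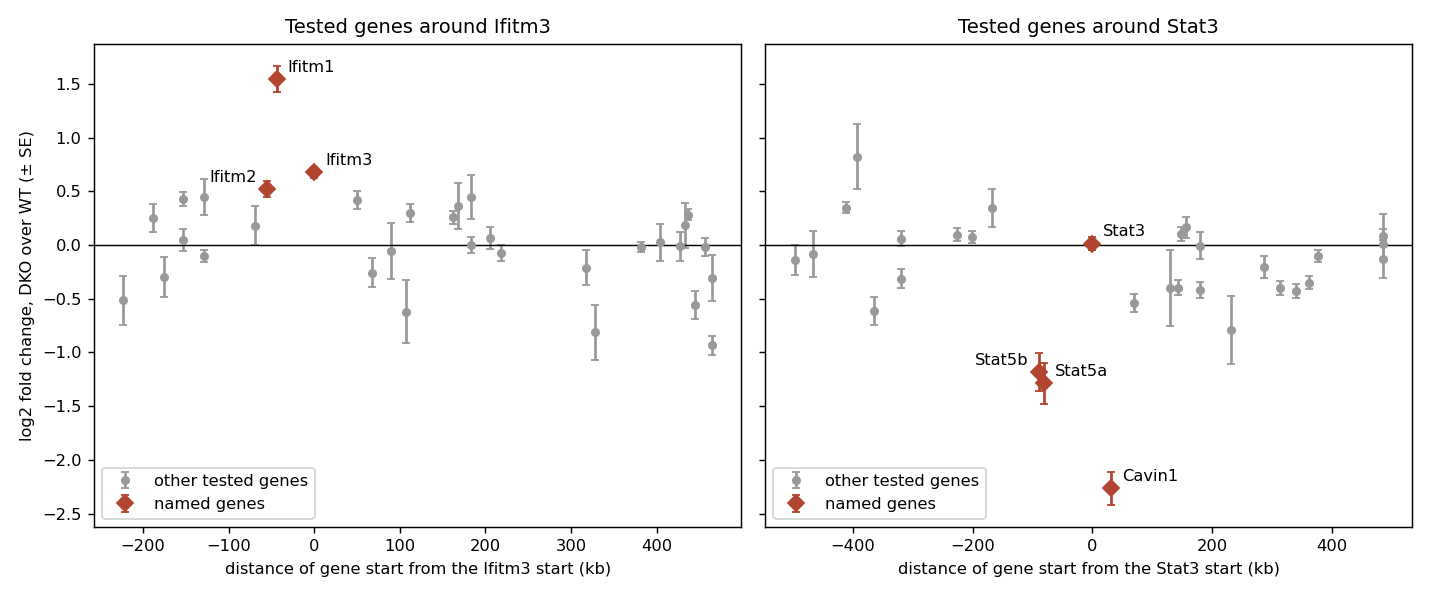
Log2 fold change (DKO over WT, bars show SE) of every tested gene whose start lies within 500 kb of the start of Ifitm3 (left) or Stat3 (right), by distance in kb; diamonds mark the genes named in the text. Ifitm1, Ifitm2 and Ifitm3 lie at 0.52 or higher, and Stat3 lies at 0.01 between Stat5a and Cavin1, at -1.29 and -2.26.

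The feedback inhibitors differed from each other in their values. Socs2 (ENSMUSG00000020027, chromosome 10, 95385362 to 95417180, minus strand), known as a target of STAT5 and as a brake on growth hormone signalling, rose. It stood at 83.9, 87.3, 84.5, 85.7 and 75.4 CPM in DKO 1 to 5, against 48.2, 50.2, 48.3 and 45.4 CPM in WT 1 to 4. The groups were well apart, with DKO 5 the lowest of its group. The log2 fold change was 0.80 ± 0.07 (SE, adjusted p = 7.39e-12 by edgeR), the largest of the 9 tested members, and 14.8% of all tested genes had a larger one in either direction. Socs3 (ENSMUSG00000053113, chromosome 11, 117966079 to 117970047, minus strand), the SOCS protein that binds gp130 and limits LIF signalling in ES cells, did not pass. It stood at 77.3, 75.1, 74.8, 67.2 and 77.0 CPM in DKO 1 to 5, against 67.9, 73.3, 70.7 and 62.5 CPM in WT 1 to 4. Most DKO libraries were above WT, but DKO 4 fell below 3 of the 4. On the log2 scale the change was 0.12 with a 95% interval of -0.02 to 0.25 (adjusted p = 0.160 by edgeR), an interval that ends below the lower bound of 0.66 for Socs2. The difference between the 2 genes was not tested.

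Socs3 is a textbook STAT3 target, so its promoter is shown. The window is chr11:117969317-117969616 on the minus strand (GRCm38.p6, which is mm10, from RefSeq), printed 5′ to 3′ along the gene. It runs from 250 bases before the RefSeq start to 50 bases after it. The GENCODE annotation, which gave the gene positions above, starts Socs3 further upstream, at 117970047. The whole window therefore lies inside the GENCODE span, and bases before the GENCODE start were not searched. Capitals mark the match to TTCNNNGAA, the palindrome that STAT proteins bind.
Socs3: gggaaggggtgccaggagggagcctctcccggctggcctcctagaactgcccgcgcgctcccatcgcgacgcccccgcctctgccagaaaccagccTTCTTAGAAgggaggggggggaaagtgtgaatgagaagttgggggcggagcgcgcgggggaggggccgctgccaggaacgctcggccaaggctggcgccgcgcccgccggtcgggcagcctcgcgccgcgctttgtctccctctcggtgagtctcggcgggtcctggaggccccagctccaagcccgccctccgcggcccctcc
The match lies at position -154 to -146 from the RefSeq start, where 1 is the first transcribed base and -1 the base before it. RefSeq windows were found for 9 of the 10 genes, 11 windows in all, with none for Socs2. The windows of Lifr and Osmr, and the Pim1 window at 29492835 to 29493134, also lie wholly inside the GENCODE spans of these genes. TTCNNNGAA, searched on both strands, was present in 2 of these genes, Socs3 and Ifitm3, and in 8.30% of all 32851 promoter windows of that length. CCNCNCCC, a string of the GC-rich type that KLF proteins bind, also searched on both strands, was in 10 of the 11 windows, and in 49.5% of all windows. The windows were not matched for base content or expression, so these shares are no measure of enrichment. The window of Osmr, a gene with 0 counts, held 4 matches. A match is no evidence of binding, and the absence of one speaks only of these letters in this window.

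Both kinases of the PIM family fell. PIM kinases are serine and threonine kinases that need no activating partner, promote survival, and are switched on at the level of transcription by STAT3 and STAT5. Pim1 (ENSMUSG00000024014, chromosome 17, 29490753 to 29496112, plus strand) stood at 71.3, 63.6, 59.9, 60.9 and 63.6 CPM in DKO 1 to 5, against 88.0, 91.0, 81.8 and 96.3 CPM in WT 1 to 4. Its highest DKO library, DKO 1, was still below the lowest WT library. This gave a log2 fold change of -0.48 ± 0.07 (SE, adjusted p = 3.00e-07 by edgeR). The antisense gene Gm26885 is annotated opposite Pim1, which leaves its count uncertain. Pim3 (ENSMUSG00000035828, chromosome 15, 88862186 to 88865726, plus strand) stood at 342, 394, 362, 359 and 351 CPM in DKO 1 to 5, against 480.5, 529, 512 and 527 CPM in WT 1 to 4. No DKO library reached the WT range, and the log2 fold change was -0.50 ± 0.05 (SE, adjusted p = 8.53e-11 by edgeR). Both changes amount to levels 0.716 times and 0.707 times those of WT. The third family member, Pim2, had 2 counts in DKO and 0 in WT.

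Ifitm3 (ENSMUSG00000025492, chromosome 7, 141009586 to 141010770, minus strand) encodes a small membrane protein that blocks the entry of viruses and is also a marker of early germ cells in the mouse. It rose in every DKO library, at 335, 335, 316, 307 and 324 CPM in DKO 1 to 5, against 208, 197, 198 and 206 CPM in WT 1 to 4. This was the member with the tightest WT group, with a coefficient of variation of 2.85%. Between the groups the log2 fold change was 0.68 ± 0.05 (SE, adjusted p = 7.51e-14 by edgeR).

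Its neighbours of the same family rose as well. Ifitm1 stood at 152, 133, 103, 148.5 and 154 CPM in DKO 1 to 5, against 39.9, 52.5, 45.8 and 51.1 CPM in WT 1 to 4. All DKO libraries were above WT, with DKO 3 the lowest of them, and the log2 fold change was 1.55 ± 0.12 (SE, adjusted p = 1.98e-07 by edgeR). Ifitm2 stood at 59.1, 67.4, 77.5, 71.4 and 66.4 CPM in DKO 1 to 5, against 49.8, 50.01, 44.2 and 46.4 CPM in WT 1 to 4. DKO 3, the lowest for Ifitm1, was the highest here, and the log2 fold change was 0.52 ± 0.08 (SE, adjusted p = 8.49e-07 by edgeR). Of 6 other Ifitm genes, 3 were tested, 2 rose and Ifitm7, on chromosome 16, did not pass (0.65, adjusted p = 0.156 by edgeR). The Ifitm genes are close copies of one another, and how reads mapping to several places were handled is not given in the sources used here, so the split between them is uncertain. Among the 30 other tested genes that start within 500 kb of Ifitm3, 6 rose and 3 fell, and their median log2 fold change was -0.0038.

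The 3 Ifitm promoters of this cluster are shown because these genes rose together. The RefSeq windows (GRCm38.p6) are chr7:141010695-141010994 on the minus strand for Ifitm3, chr7:140967826-140968125 on the plus strand for Ifitm1 and chr7:140955912-140956211 on the minus strand for Ifitm2. Capitals mark TTCNNNGAA and GAAA, any 2 bases, GAAA, the core of the interferon-stimulated response element (ISRE), a motif added after the data were seen and searched on both strands.
Ifitm3: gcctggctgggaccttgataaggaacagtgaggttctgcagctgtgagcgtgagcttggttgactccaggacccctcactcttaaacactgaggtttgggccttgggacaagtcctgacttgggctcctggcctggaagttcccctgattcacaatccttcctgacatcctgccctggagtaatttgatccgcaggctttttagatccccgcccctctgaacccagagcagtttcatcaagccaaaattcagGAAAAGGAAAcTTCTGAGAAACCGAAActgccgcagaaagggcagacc
Ifitm1: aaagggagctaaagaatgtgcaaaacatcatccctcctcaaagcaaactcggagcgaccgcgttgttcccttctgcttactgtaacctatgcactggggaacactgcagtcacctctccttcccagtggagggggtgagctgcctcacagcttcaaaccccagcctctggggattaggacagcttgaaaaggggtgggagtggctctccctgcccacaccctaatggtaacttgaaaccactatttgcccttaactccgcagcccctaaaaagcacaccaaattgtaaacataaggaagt
Ifitm2: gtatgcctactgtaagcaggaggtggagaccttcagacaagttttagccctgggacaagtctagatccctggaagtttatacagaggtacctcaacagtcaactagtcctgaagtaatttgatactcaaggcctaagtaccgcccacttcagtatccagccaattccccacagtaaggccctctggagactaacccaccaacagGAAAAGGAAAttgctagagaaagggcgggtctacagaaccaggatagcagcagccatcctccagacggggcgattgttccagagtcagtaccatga
In Ifitm3 both strings fall just inside the gene: GAAAAGGAAA at 3 to 12, TTCTGAGAA at 14 to 22 and GAAACCGAAA at 20 to 29, the last pair sharing bases. Ifitm2 held GAAAAGGAAA at -46 to -37 and no TTCNNNGAA. The Ifitm1 window, from the gene with the largest rise of the cluster, held neither. That window lies wholly downstream of the Ifitm1 start in GENCODE, and bases before the GENCODE start were not searched. The ISRE core was in 3.44% of all promoter windows. CCNCNCCC, not marked in these sequences, had 1 match in the Ifitm3 window, 2 in that of Ifitm1 and 0 in that of Ifitm2.

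Ifitm3 also belongs to the interferon response, and 20 other genes of that response showed no common direction. Only 5 had enough reads to be tested, and all 5 passed: Irf1 (log2 fold change 0.40), a transcription factor of the interferon response, rose with Irf9 (0.30, named after its value was seen), while Bst2 (-0.62), the tether that holds budding viruses, Xaf1 (-0.98) and Oas1a fell. Oas1a, a sensor of double-stranded RNA, had 3, 0, 2, 0 and 0 counts in DKO 1 to 5, against 27, 29, 35 and 63 counts in WT 1 to 4. The groups did not overlap (adjusted p = 2.25e-10 by edgeR), and the DKO values lay at or under the floor of 3 counts per library. The other 15 were too low to test, among them Isg15, Ifit1, Ifit3, Mx1 and Usp18. Some of them had reads that differed. Tap1 (57 counts in DKO and 19 in WT) and Rsad2 (19 in DKO and 1 in WT) were higher in every DKO library. Oasl1 (3 in DKO and 18 in WT) was lower, with overlap. Bst2 lies on chromosome 8, which had a median log2 fold change of -0.19 over 664 tested genes, although the tested genes within 10 Mb of it had a median of 0.27.

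The 8 further lists held 95 names, of which 66 were tested, 16 rose and 15 fell, with a median log2 fold change of 0.02. These totals include the other Ifitm genes and the interferon response genes described above, beside the remaining genes of the pathway. By the same rule 47.8% of all tested genes passed, 23.9% as higher and 24.0% as lower in DKO. The counts of each list and of the genomic neighbours are to be read beside these shares, and none was tested against them. Of the 10 ligand genes of the family, 4 were tested. Lif itself, at low counts, was the only one to pass, with 37, 22, 17, 18 and 27 counts in DKO 1 to 5 against 12, 7, 7 and 7 counts in WT 1 to 4. Each DKO library had more Lif reads than any WT library, and the log2 fold change was 1.64 ± 0.32 (SE, adjusted p = 5.23e-05 by edgeR). Osm (-0.03), which encodes oncostatin M, and Ctf1 (0.33) did not pass. Of 5 further receptor chains, the IL-6 receptor Il6ra (0.03) and the IL-11 receptor Il11ra1 (0.16) were tested and did not pass, and Cntfr, Il27ra and Il31ra were too low to test.

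All 9 of the other JAK and STAT genes were tested, of which 1 rose and 3 fell. Jak3, a kinase best known from lymphocytes, rose by 0.59 on the log2 scale (adjusted p = 0.000744 by edgeR), and the tested genes within 10 Mb of it on chromosome 8 had a median of 0.27. Stat6 (-0.27, adjusted p = 0.0366 by edgeR), the factor of IL-4 signalling, fell beside the Stat5 genes, a call lost in 8 of the 17 alternative settings. The other 5 did not pass.

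Of 14 further inhibitors, all tested, 3 rose and 1 fell. Socs1, which restrains interferon and cytokine receptors, had 37, 35, 37, 15 and 26 counts in DKO 1 to 5, against 62, 82, 106 and 76 counts in WT 1 to 4. No DKO library reached the WT range, and the log2 fold change was -1.33 ± 0.20 (SE, adjusted p = 8.81e-07 by edgeR). Ptpn6, which encodes the phosphatase SHP-1, stood at 39.6, 42.9, 39.9, 39.3 and 43.3 CPM in DKO 1 to 5, against 18.2, 17.4, 20.6 and 20.9 CPM in WT 1 to 4. It rose in every DKO library, by 1.09 ± 0.09 on the log2 scale (SE, adjusted p = 6.28e-12 by edgeR), on chromosome 6, where the 127 tested genes within 10 Mb had a median of 0.35. Pias2 (0.15, adjusted p = 0.0181 by edgeR), which encodes a SUMO ligase, rose, with its call lost in 2 of the 17 alternative settings. The receptor phosphatase gene Ptprk (0.16, adjusted p = 0.0486 by edgeR) rose by a margin that 14 of the 17 settings removed. Socs6 (0.14) and Ptpn1 (-0.09) did not pass.

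Of 11 genes on the other branches from the receptor, 10 were tested, 2 rose and 2 fell. The adaptor gene Gab1 (-0.42, adjusted p = 2.19e-08 by edgeR) and Ptpn11 (-0.27, adjusted p = 0.00204 by edgeR), which encodes SHP2, the phosphatase that links gp130 to ERK, fell. The 144 tested genes within 10 Mb of Gab1 had a median of -0.42, and those near Ptpn11 one of -0.04. Pik3r1 (0.52, adjusted p = 1.45e-05 by edgeR), a regulatory subunit of PI3 kinase, rose, as did the adaptor Shc1 (0.26, adjusted p = 0.0333 by edgeR), whose call was lost in 7 of the 17 settings. Akt2 (-0.07) and Grb2 (0.11) did not pass.

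Of 20 further genes known to respond to LIF or STAT3, 19 were tested, 5 rose and 6 fell. The naive factors Tfcp2l1 (0.49) and Gbx2 (23.4 CPM in DKO and 10.2 CPM in WT) rose. Both are known to replace STAT3 activity when forced on in mouse ES cells. Klf4 (0.91) and Ccnd3 (0.81), which encodes cyclin D3, rose as well. Klf4 is counted among the 5, but it is named in the knockout label, so its reads may not report a working transcript. Klf5 (1.27), another KLF factor of naive pluripotency, rose too, and Junb (-0.38), Myc (-0.85), Spry2 (-0.43), Ier3 (-0.84), Vegfa (-0.61) and Bcl2l1 (-0.22) fell. These 7 were named after their values were seen. Myc had few reads, 62 counts in DKO and 97 in WT, of which 41 were in WT 4. The groups overlapped for Myc and Bcl2l1 (adjusted p = 0.0223 and 0.0175 by edgeR). Junb had 123 tested genes within 10 Mb, with a median of -0.58. Mcl1 (0.05), an anti-apoptotic gene, and Hif1a (-0.03) did not pass. The list was drawn up with results of these samples known, so its counts are not independent evidence of a direction.

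**Figure D3:**
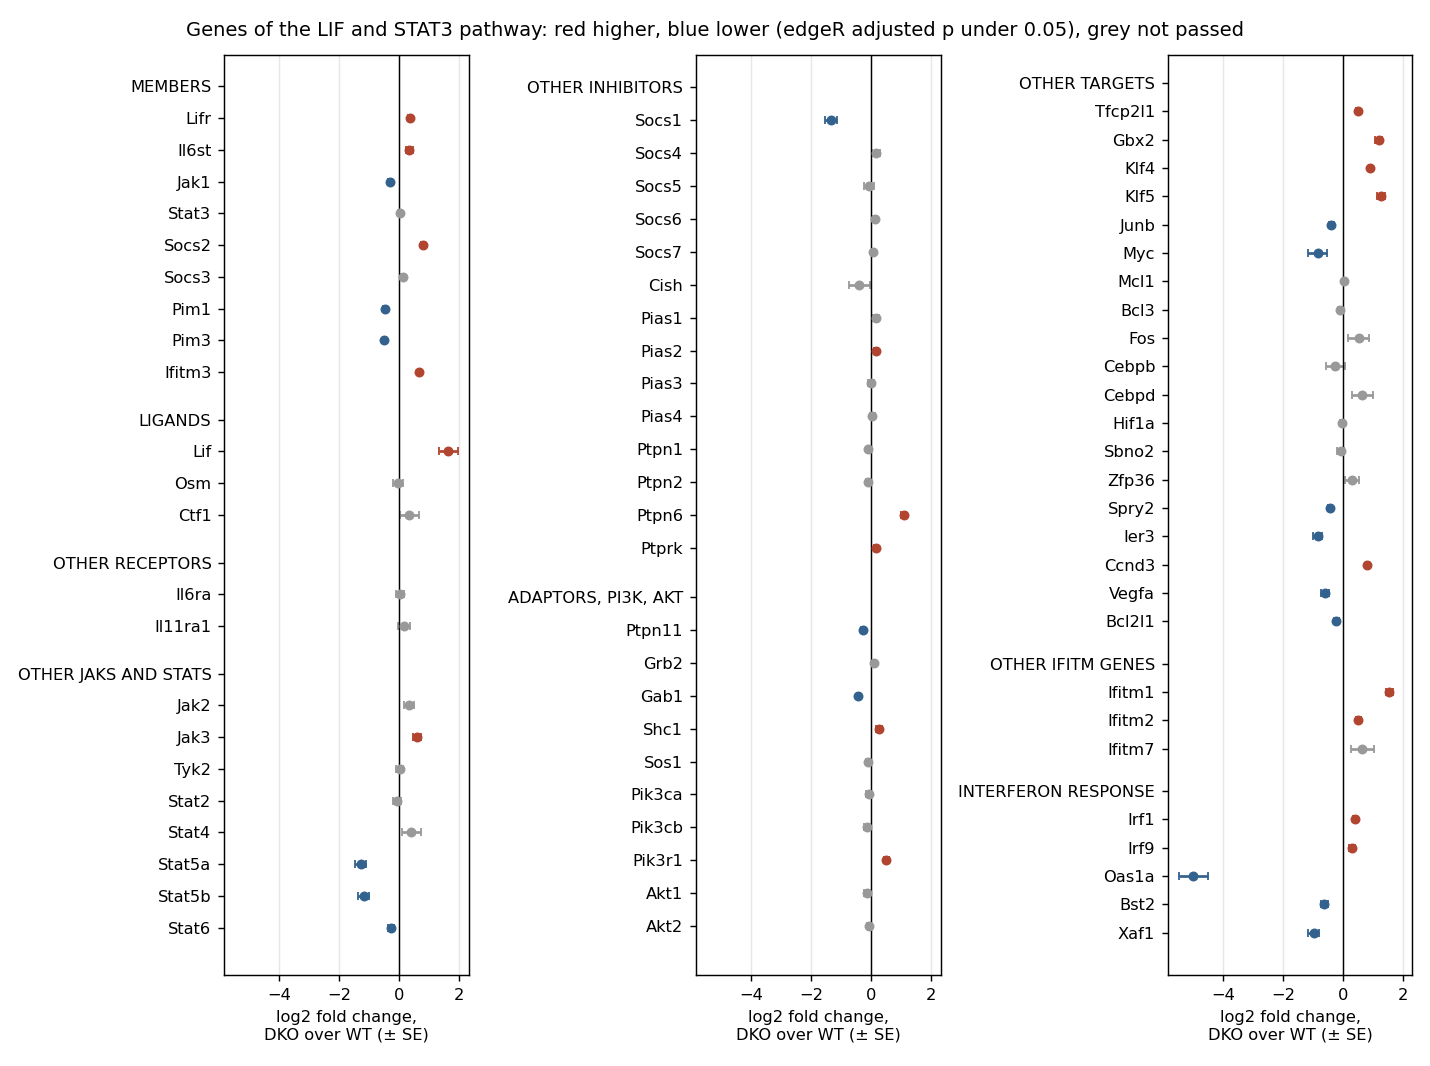
Log2 fold change (DKO over WT, bars show SE) of the 9 tested members and of the tested genes reported here from the 8 further lists, coloured by whether the gene passed as higher (red) or lower (blue) in DKO or did not pass (grey). The member changes lie between -0.50 and 0.80, and rises and falls stand side by side in most lists.

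For Socs3 and Ifitm3, the genes most like them over the 9 libraries were sought among the 3817 other tested genes with a mean of at least 50 CPM. Likeness was the root mean square difference of log2(CPM + 1) after each gene was centred on its own mean. Nearest to Socs3 were Ppp3cb (0.045), E2f1 (0.047) and Hnrnpk (0.049), against a median of 0.16 over all genes compared. Nearest to Ifitm3 were Washc2 (0.051), Colgalt1 (0.054) and Map4k4 (0.059), against a median of 0.35, with log2 fold changes of 0.70, 0.62 and 0.62. These distances describe the libraries and carry no test.

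**Figure D4:**
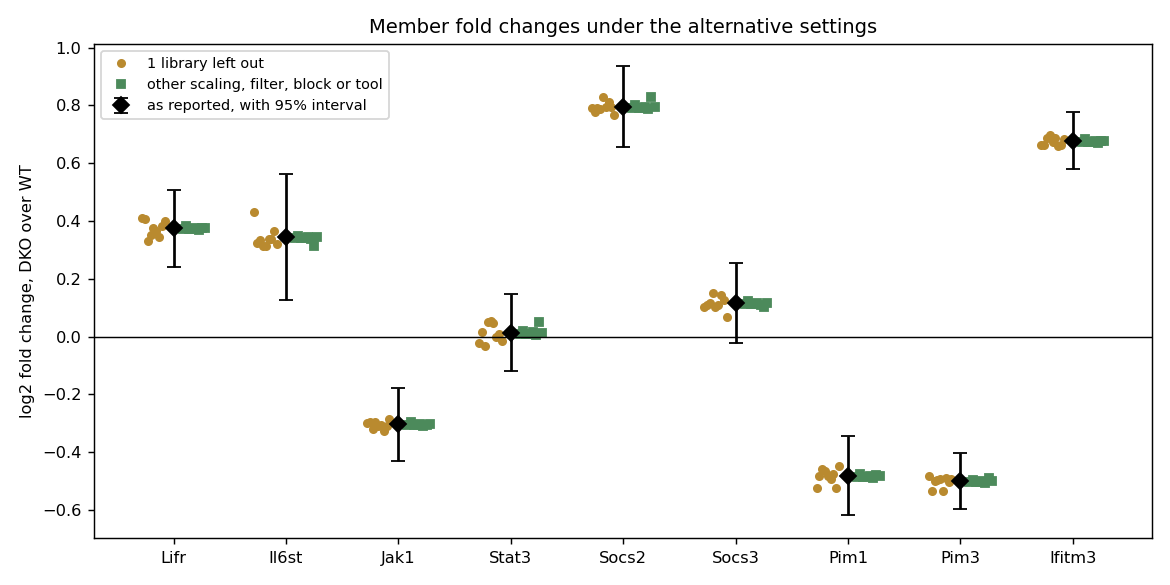
Log2 fold change (DKO over WT) of the 9 tested members as reported (black diamonds, 95% interval), with 1 library left out (circles) and under other scaling, filters, the block or DESeq2 (squares). The 7 members that passed stay on their own side of 0 in all 17 settings, and the Stat3 values lie on both sides of it.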

How the data were processed

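Transcripts of 9 libraries were read from their 3′ ends (QuantSeq FWD, 600 ng of total RNA, per the labels' protocols). The authors deposited raw read counts per Ensembl gene, whole numbers with no normalization; cutadapt, STAR, featureCounts, DESeq2 and mm10 are named in the submitters' processing notes without versions or roles. The annotation release, the strand setting and how multi-mapped reads were treated are details not given in the sources used here. CPM, counts per size-scaled library, was not divided by gene length, and levels were compared between groups, not between genes. Symbols and positions came from GENCODE mouse release 21, which held 52403 of the 52550 identifiers. All columns were used.

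Genes kept by filterByExpr were scaled by TMM and tested with edgeR 4.0.16 in R 4.3.3 (robust quasi-likelihood, genotype only, all 9 libraries, Benjamini-Hochberg over all tested genes). The SE is the fold change divided by the square root of F. The test was checked on simulated counts with changes larger than that of any member, so the check does not cover changes of the members' size. CPM uses TMM-scaled counts of tested genes. Marker sums were compared by 2-sided exact permutation over 126 divisions. The 16 within-group pairs differed beyond sampling noise (chi-square per degree of freedom 2.21 to 4.98). Counting intervals cover counting error only. Local medians used tested genes within 10 Mb. Alternatives covered scaling, DESeq2 1.42.0, filters, a block, non-robust fitting and each library left out. All members were named, and of each further list the 4 tested genes that ranked first by adjusted p plus the 2 most abundant that missed the threshold at a mean of 50 CPM or more. Other genes named, among them markers and genes too low to test, fall outside this rule, and their values had been seen. Members and lists were chosen with earlier results of these data known. A few genes of these lists stay in the counts and sums but are not reported here by name.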

Additional observations from a re-analysis of the deposited data

Results flagged for a closer look

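In 7 of 96 groups of libraries 1 library stood far from the rest of its group, by a gap rule that chance meets in about 1 group in 20. Il6st was 20.8 CPM in DKO 1, against 28.2 to 30.0 CPM in the other DKO libraries. Socs2 was 75.4 CPM in DKO 5, against 83.9 to 87.3 CPM in the other DKO libraries. Socs3 was 67.2 CPM in DKO 4, against 74.8 to 77.3 CPM in the other DKO libraries. Lif was 1.80 CPM in WT 1, against 0.994 to 1.07 CPM in the other WT libraries. Gab1 was 245 CPM in WT 3, against 286 to 291 CPM in the other WT libraries. Klf4 was 775 CPM in WT 2, against 863 to 878 CPM in the other WT libraries. The summed ES cell markers were 3569 CPM in WT 2, against 3327 to 3367 CPM in the other WT libraries. The flags fell on 6 different libraries.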

How the results depend on the processing

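The 7 member calls (4 higher, 3 lower) were made in each of the 17 alternative settings, and no count of called genes moved by over 1.5 times. With 1 library left out in turn, the log2 fold change changed sign for 4 genes that did not pass: Stat3 ranged from -0.0317 to 0.0540, Osm from -0.164 to 0.0820, Il6ra from -0.0215 to 0.0782 and Hif1a from -0.0714 to 0.00877. The difference in summed primitive endoderm markers, DKO minus WT, ranged from -1.88 to -0.81 CPM in the same way. Its exact permutation p ranged from 0.0357, without WT 3, to 0.304, with no adjustment over the 4 marker lists. With all 9 libraries the exact permutation p was 0.127 (BH 0.169). Deviations from the group means correlated at 0.01 to 0.06 over the 4 same-numbered pairs and at -0.05 to 0.05 over the other pairs. Of the libraries numbered 1 to 4, 4 of 4 in DKO and 3 of 4 in WT correlated best with their own number. Whether the numbers mark a shared batch is not given by the labels. With the replicate number as a block, 7 members and 5530 of all genes passed, against 5689 without it. Scaling moved the median log2 fold change of all genes by under 0.1. Low depth limits Osmr, the ligands and most interferon genes.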
